A study of Mus musculus with 12 samples.

Results

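Kinesins are motor proteins that spend ATP to move along microtubules or to take microtubule ends apart, and the mouse genes that encode them are described here in dorsal cortex made deficient in Ash2l and in WT dorsal cortex. The members were all genes of the count tables whose symbol is Kif with a number and no more than 1 letter out of a, b and c, or Kifc with 1 digit. That rule used no measured value and took 40 of the 27179 genes. Each was given 1 role: 13 were taken as mitotic kinesins, 13 as axonal and dendritic kinesins, 8 as ciliary or kinesin-2 motors and 6 as none of these. The roles are not exclusive. Kif3c and Kif17, also kinesin-2 motors, were placed with the axonal and dendritic members. So was Kif26a, while its relative Kif26b was placed in none. The roles were chosen with earlier results of these data known. In every comparison 38 of the 40 passed the filter on low counts. Kif2b, a mitotic depolymerase, had 0 counts in every library. Kif12 had 2 and 1 counts in E16.5 cKO libraries A and B and 0 in the other libraries.

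Bulk RNA was sequenced from C57BL/6 embryos in 4 groups of 3 libraries each, namely Ash2l conditional knockout (cKO) at E16.5, WT at E16.5, cKO at E14.5 and WT at E14.5. The knockout was made with D6-Cre, a Cre line active in dorsal cortical progenitors and hence in the neurons born from them, and Ash2l encodes a subunit shared by the COMPASS complexes that methylate histones at active genes. Whether the WT embryos carried Cre or a floxed allele, and whether a library is 1 embryo or a pool, is not given in the sources used here, and a p-value here measures how libraries spread, which may be technical. Within each age 1 cKO and 1 WT library share a number in their titles, and libraries with the same number carry the same letter here, A, B or C; what the number marks is not stated, and the letters of the 2 ages are unrelated.

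Library totals ran from 14318147 to 24719047 counts. Ash2l was at 52.9, 59.6 and 58.6 CPM (the count scaled to a common library size after TMM normalisation) in E16.5 cKO against 136, 130.1 and 136 CPM in WT libraries A, B and C, and at 48.1, 59.5 and 52.0 CPM in E14.5 cKO against 126, 144 and 118 CPM in WT; the cKO libraries were lower throughout, and RNA remained in all of them (log2 fold change -1.202, SE 0.068, adjusted p = 0.000819 at E16.5 and log2 fold change -1.28, SE 0.12, adjusted p = 0.0124 at E14.5, edgeR with Benjamini-Hochberg adjustment). The 10 dorsal cortex markers were all detected, with sums of 2338 to 2662 CPM in E16.5 cKO, 3058 to 3247 CPM in E16.5 WT, 2262 to 3103 CPM in E14.5 cKO and 3036 to 3291 CPM in E14.5 WT. Some libraries stood apart in markers of neighbouring tissue. The 8 choroid plexus markers summed to 642 CPM in E16.5 WT C and 498 CPM in E14.5 WT A, and to no more than 66.0 CPM in the other 10 libraries. The 8 meningeal markers summed to 354.1 CPM in E14.5 cKO A and to no more than 46.8 CPM elsewhere, and the 10 ventral and GABAergic markers to 383 CPM in E14.5 WT B and to no more than 218 CPM elsewhere. Read from Xist and Y-linked genes, the E14.5 cKO embryos were all female and the E14.5 WT embryos all male, while both sexes occur in both groups at E16.5. Genotype and sex therefore cannot be told apart for any gene at E14.5. In bulk RNA, fewer cells of a type and less RNA per cell cannot be told apart, which applies to every value below.

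Each kinesin has a motor domain that binds microtubules and a tail that decides what it moves. In dividing cells the mitotic kinesins build the spindle, move chromosomes and complete cytokinesis, and most of their genes are transcribed late in the cell cycle. In neurons, which no longer divide, other kinesins carry vesicles, mitochondria and RNA into axons and dendrites. The embryonic cortex holds both kinds of cell, dividing progenitors along the ventricle and young neurons in the layers above, and its primary cilia carry signals that depend on a further set of motors.

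Most promoters of the mitotic members hold the letters TTTGAA, which the rule did not use. The window searched ran from 250 bases before to 50 bases after each gene's start in RefSeq (GRCm38.p6), and 32 of the 40 members have one. Kif20a, Kif5a, Kif5b, Kif13b, Kif21b, Kifc2, Kif19a and Kifc3 have none. The 12 mitotic members with a window thus lack Kif20a and include the undetected Kif2b, unlike the 12 tested. These letters, known as the cell cycle genes homology region, were looked for on both strands. They occurred in 10 of 12 mitotic members with a window, in 1 of 8 axonal and dendritic members, in 1 of 7 ciliary and kinesin-2 motors and in 1 of 5 others, against 20.2% of the 27025 genes of the table. Within 25 bases of the start they occurred in 8 of 12 mitotic members, in 0 of 8 axonal and dendritic members, in Kif26b among the others and in 3.1% of all genes, a limit chosen after the positions were seen. CCAAT, the letters of the NF-Y box, neither contains nor lies within TTTGAA, and occurred on either strand in 8 of 12 mitotic members, 1 of 8 axonal and dendritic members, 5 of 7 ciliary and kinesin-2 motors, 1 of 5 others and 41.1% of all genes. The 10 mitotic stretches are shown because these genes were lower in every E16.5 WT library than in every E14.5 WT library. Each is 30 bases on the gene's own strand, with the element nearest the start in capitals (TTCAAA where it lies on the other strand).
Kif11, chr19:37376351-37376380, plus strand: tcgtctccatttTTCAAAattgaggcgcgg
Kif14, chr1:136467608-136467637, plus strand: ggaggtcctgtcTTTGAAgtctgcagtgtc
Kif15, chr9:122951050-122951079, plus strand: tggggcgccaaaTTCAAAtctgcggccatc
Kif18b, chr11:102925104-102925133, minus strand: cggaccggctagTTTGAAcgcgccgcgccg
Kif20b, chr19:34922353-34922382, plus strand: gagccgccattgTTTGAAtttgaaaaccgg
Kif22, chr7:127042420-127042449, minus strand: gggccccggtaaTTCAAAagagagaagcgg
Kif23, chr9:61946780-61946809, minus strand: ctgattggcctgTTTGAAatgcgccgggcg
Kif2c, chr4:117178858-117178887, minus strand: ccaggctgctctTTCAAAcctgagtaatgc
Kif4, chrX:100626072-100626101, plus strand: ctctgggatcaaTTTGAAacttggcggtta
Kifc1, chr17:33890615-33890644, minus strand: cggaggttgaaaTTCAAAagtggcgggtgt

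The element began 19 bases before the start in Kif11 and Kif15 and 17 bases before it in Kif22. It began at base 2 of the transcript in Kifc1, base 3 in Kif23, base 4 in Kif18b, base 8 in Kif20b and base 20 in Kif4. Kif15, Kif20b and Kif22 hold 2 matches each, and in Kif20b the second follows the first directly. In Kif2c and Kif14 it lay 103 and 228 bases before the start. The counted Kif2c gene, on the minus strand, reaches up to base 117182624 of chr4. Its window therefore lies inside the counted gene, at a start further along. These matches are letters in a window and no evidence that a factor binds there. The bases before the start of Kif23 and of Kif5c are given to set a mitotic beside an axonal promoter, with CCAAT or its complement ATTGG in capitals; Kif23 has it 1 time and Kif5c has none, and G or C make up 64.4% of the first and 55.2% of the second.
Kif23, chr9:61946800-61947049, minus strand: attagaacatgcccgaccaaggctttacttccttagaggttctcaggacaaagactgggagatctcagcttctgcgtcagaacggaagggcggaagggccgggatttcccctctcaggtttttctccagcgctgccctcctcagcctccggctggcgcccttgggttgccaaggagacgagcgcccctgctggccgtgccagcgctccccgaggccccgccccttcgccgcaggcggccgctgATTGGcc
Kif5c, chr2:49619036-49619285, plus strand: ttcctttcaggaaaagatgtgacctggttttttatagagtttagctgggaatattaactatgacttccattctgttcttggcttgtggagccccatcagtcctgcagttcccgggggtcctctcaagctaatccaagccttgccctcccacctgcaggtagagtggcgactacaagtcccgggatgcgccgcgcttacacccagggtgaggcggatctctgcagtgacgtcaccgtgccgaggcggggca

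Per kilobase of exon, axonal kinesins were the most abundant members in every group. In E16.5 cKO the order began with Kif21b at 114 ± 11.4, Kif5c at 104 ± 5.76, Kif1b at 93.1 ± 2.20 and Kif1a at 87.4 ± 13.2 CPM per kb (mean ± SD, n = 3). In E16.5 WT it began with Kif5c at 132 ± 5.504, Kif21b at 131 ± 8.05, Kif1a at 105 ± 10.7 and Kif1b at 100.2 ± 3.98 CPM per kb. Kif5c and Kif21b, like Kif1a and Kif1b, differed by less than their spread in WT. The same 4 genes led at E14.5 in both genotypes. The most abundant mitotic member was Kif11, at 30.3 ± 10.2 CPM per kb in E16.5 cKO, 25.2 ± 5.47 in E16.5 WT, 50.3 ± 11.7 in E14.5 cKO and 44.2 ± 5.504 in E14.5 WT. Summed per kilobase, the mitotic members came to 115, 162 and 198 CPM per kb in E16.5 cKO libraries A, B and C against 114, 139.7 and 154 in WT, and to 364, 224 and 261 in E14.5 cKO against 279, 197 and 242 in WT. The axonal and dendritic members came to 687, 630.4 and 656 CPM per kb in E16.5 cKO against 793, 747 and 733 in WT, and to 518, 568 and 627 in E14.5 cKO against 652, 740.2 and 637 in WT. The cKO libraries lay below every WT library of their age in the axonal sum and overlapped WT in the mitotic sum.

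**Figure D1:**
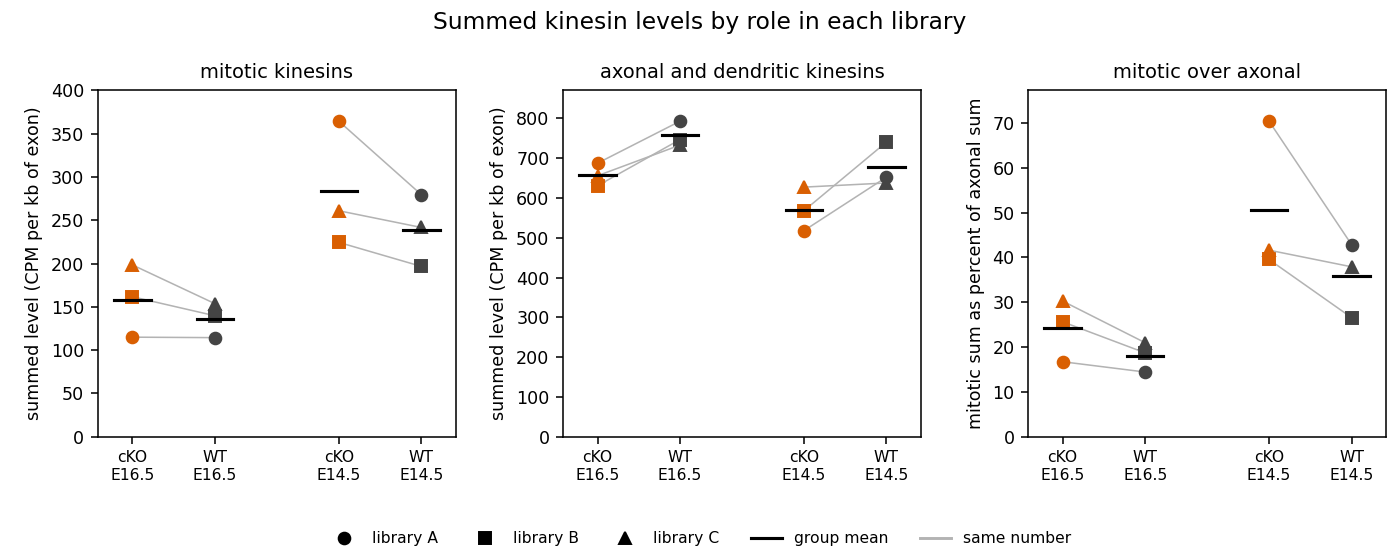
Summed level of the mitotic members (left) and of the axonal and dendritic members (middle), in CPM per kb of exon, and the first as a percent of the second (right); each point is a library (symbols A, B and C), bars are group means and grey lines join libraries with the same number. The percent was 16.7, 25.6 and 30.3 in E16.5 cKO A, B and C against 14.4, 18.7 and 21.0 in E16.5 WT. At E14.5 it was 70.4, 39.5 and 41.6 in cKO against 42.9, 26.6 and 37.9 in WT. It was higher in the cKO library of every same-number pair at both ages, while the groups overlap at both ages.

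At E16.5, 5 of the 38 kinesins tested changed in cKO cortex: Kif16b, Kif26b, Kif5c and Kif26a fell and Kif7 rose. None of the 12 mitotic kinesins tested passed the threshold when genotype was the only term, although 11 of the 12 had a log2 fold change above 0. At E16.5 libraries with the same number deviated from their group means together, though pair C (correlation 0.111) hardly more than cKO B and WT C (0.107). With the number as a block 21 kinesins passed, 12 higher and 9 lower. Then 8 of 12 mitotic kinesins rose and 6 of 13 axonal and dendritic kinesins fell, with 1 of those 13 higher. The test was edgeR's quasi-likelihood test with Benjamini-Hochberg adjustment over all genes and a threshold of 0.05. It called 5.98% of all 14865 genes higher and 9.88% lower, and with the block 14.3% higher and 17.9% lower. With genotype as the only term, 4 of 38 kinesins lower is close to the share of all genes, and 1 of 38 higher is below it. Over all genes the median log2 fold change was 0.02.

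**Figure D2:**
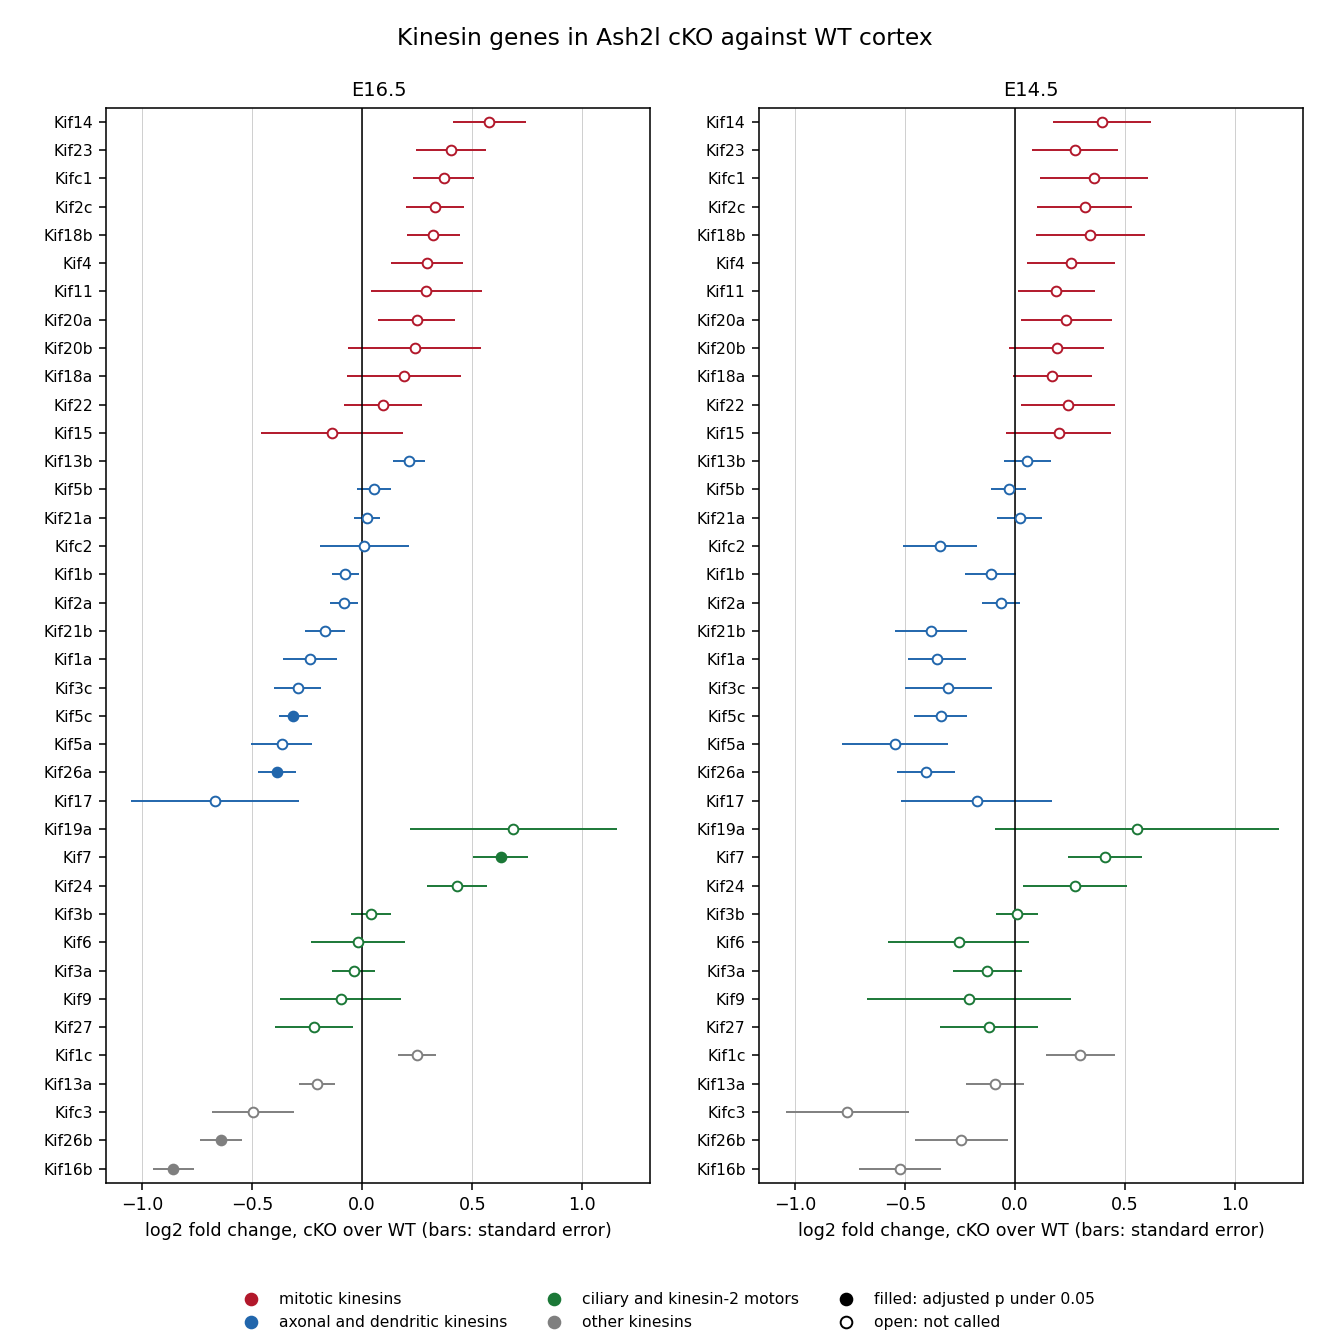
Log2 fold change of cKO over WT (x axis) with its standard error for the 38 kinesins tested, at E16.5 (left) and E14.5 (right), ordered by role and by the E16.5 value; filled points have an adjusted p under 0.05 with genotype as the only term. At E16.5 the 12 mitotic members run from -0.14 to 0.58 and the 13 axonal and dendritic members from -0.67 to 0.21, and no point is filled at E14.5.

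The mitotic kinesins had a median log2 fold change of 0.29 at E16.5. Kif14, which acts at the midbody in cytokinesis, was at 28.9, 41.7 and 48.4 CPM in cKO A, B and C against 26.5, 27.1 and 27.6 CPM in WT, a log2 fold change of 0.58 (SE 0.17, adjusted p = 0.0526). Every cKO library was above every WT library, though A only just. With the block its adjusted p was 0.00861. Kif23, the motor of the central spindle complex, was at 40.9, 53.0 and 63.3 CPM in cKO against 34.5, 43.5 and 43.0 CPM in WT, log2 fold change 0.40, SE 0.16, adjusted p = 0.127, and an adjusted p of 0.00387 with the block. Here cKO A lay among the WT libraries and was above its own WT partner. Kif11, the kinesin-5 that pushes the spindle poles apart, was at 93.0, 154 and 191 CPM in cKO against 91.9, 129 and 143 CPM in WT, log2 fold change 0.29, SE 0.25, adjusted p = 0.475. The groups overlap: the level differs more between numbers than between genotypes, and with the block the log2 fold change was 0.26 (SE 0.066, adjusted p = 0.0147). Kif20a, needed for cytokinesis, was at 42.7, 53.7 and 67.4 CPM in cKO against 39.8, 45.7 and 54.9 CPM in WT, log2 fold change 0.25, SE 0.17, adjusted p = 0.371, and an adjusted p of 0.0209 with the block. Each cKO library was above its WT partner, and the groups overlap.

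Of the other mitotic members, the depolymerase Kif2c, the kinesin-8 Kif18b, the chromosome motor Kif4 and the minus-end motor Kifc1 also rose with the block, with log2 fold changes of 0.34, 0.32, 0.29 and 0.37 and adjusted p of 0.00674, 0.0252, 0.0101 and 0.0227. Kif4 is X-linked, and E16.5 cKO C and WT A are female. Kifc1 shares most of its sequence with Kifc5b, which the naming rule leaves out, so the counts of both are uncertain; Kifc5b itself had log2 fold change 0.57, SE 0.14, adjusted p = 0.033 with genotype as the only term. Kif15, which can stand in for Kif11, had a log2 fold change of -0.14, at 27.7, 58.7 and 77.0 CPM in cKO against 48.5, 62.7 and 71.3 CPM in WT. In Kif15 cKO A was the lowest of the 6 libraries, and cKO C the highest. Kif18a, Kif20b and Kif22 had values of 0.19, 0.24 and 0.10 and passed neither fit. Without E16.5 cKO A, 4 mitotic kinesins were called higher with genotype as the only term, where 6.97% of all genes were. Without the pair C the block called 17 kinesins, 8 higher (4 of them mitotic) and 9 lower, where 12.1% of all genes were called higher and 16.4% lower.

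The axonal and dendritic kinesins had a median log2 fold change of -0.17 at E16.5, and 9 of 13 were below 0. Kif5c, a neuronal heavy chain of kinesin-1 (chr2:49619314-49774778, plus strand, mm10), was at 681, 701 and 757 CPM in cKO A, B and C against 876, 947 and 888 CPM in WT. All cKO libraries were below all WT libraries, with log2 fold change -0.31, SE 0.067, adjusted p = 0.0197. Kif26a, a kinesin without ATPase activity that binds microtubules (chr12:112146208-112181747, plus strand), was at 143, 131 and 139.6 CPM in cKO against 208, 169.5 and 176 CPM in WT, again without overlap, and fell with log2 fold change -0.39, SE 0.088, adjusted p = 0.0233. Without E16.5 WT C, the library with choroid plexus RNA, the log2 fold changes were about as large, at -0.32 for Kif5c and -0.41 for Kif26a, but neither was called (adjusted p = 0.0674 and 0.0515), and the calls were those of Kif16b, Kif26b and Kif7. Kif5c was also not called without WT B or cKO B, nor Kif26a when cKO B, cKO C or WT A was left out.

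Kif5a, the second neuronal heavy chain, was at 297, 234 and 218 CPM in cKO against 375.7, 327 and 284 CPM in WT, log2 fold change -0.37, SE 0.14, adjusted p = 0.117. Each cKO library was below its WT partner, the groups overlap through cKO A, and with the block the adjusted p was 0.00025. Kif1a, which carries synaptic vesicle precursors, was at 843, 690.1 and 632 CPM in cKO against 971, 834 and 805 CPM in WT, log2 fold change -0.24, SE 0.12, adjusted p = 0.23, and 0.00597 with the block. Its cKO A lay above WT B and C. Kif3c and Kif21b fell with the block as well, with log2 fold changes of -0.30 and -0.17 (adjusted p = 0.000975 and 0.0218). Kif13b rose with the block (log2 fold change 0.21, SE 0.058, adjusted p = 0.0195), and its cKO libraries, at 85.6, 75.5 and 77.8 CPM, were all above WT, at 72.4, 69.0 and 69.1 CPM. The widely expressed heavy chain Kif5b, the third member of its family, had a log2 fold change of 0.053 (SE 0.079, adjusted p = 0.689), and Kif21a one of 0.022 (SE 0.06, adjusted p = 0.837). Kif17, a dendritic motor, had a log2 fold change of -0.67 at no more than 1.4 CPM and passed neither fit, like Kif1b at -0.077, the tubulin depolymerase Kif2a at -0.082 and the minus-end motor Kifc2 at 0.0098.

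Neuronal and progenitor markers differed between the same libraries. The 15 pan-neuronal markers summed to 5649 to 5969 CPM in E16.5 cKO against 7668 to 8547 CPM in WT, all 15 were below 0 and 9 were called lower, 14 with the block. The 10 apical progenitor markers summed to 1649.9 to 2253 CPM in cKO against 1570.2 to 1962 CPM in WT. Of them 3 were called higher, and with the block 5 higher and 1 lower. The 8 intermediate progenitor markers summed to 386 to 606 CPM in cKO against 555 to 681 CPM in WT, and 1 was called lower, 2 with the block. Over all genes 9.88% were called lower and 5.98% higher, and with the block 17.9% lower and 14.3% higher. The intermediate progenitor counts are close to those shares. None of these markers was at 0 in any library, and their part in the kinesin values was not tested.

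**Figure D3:**
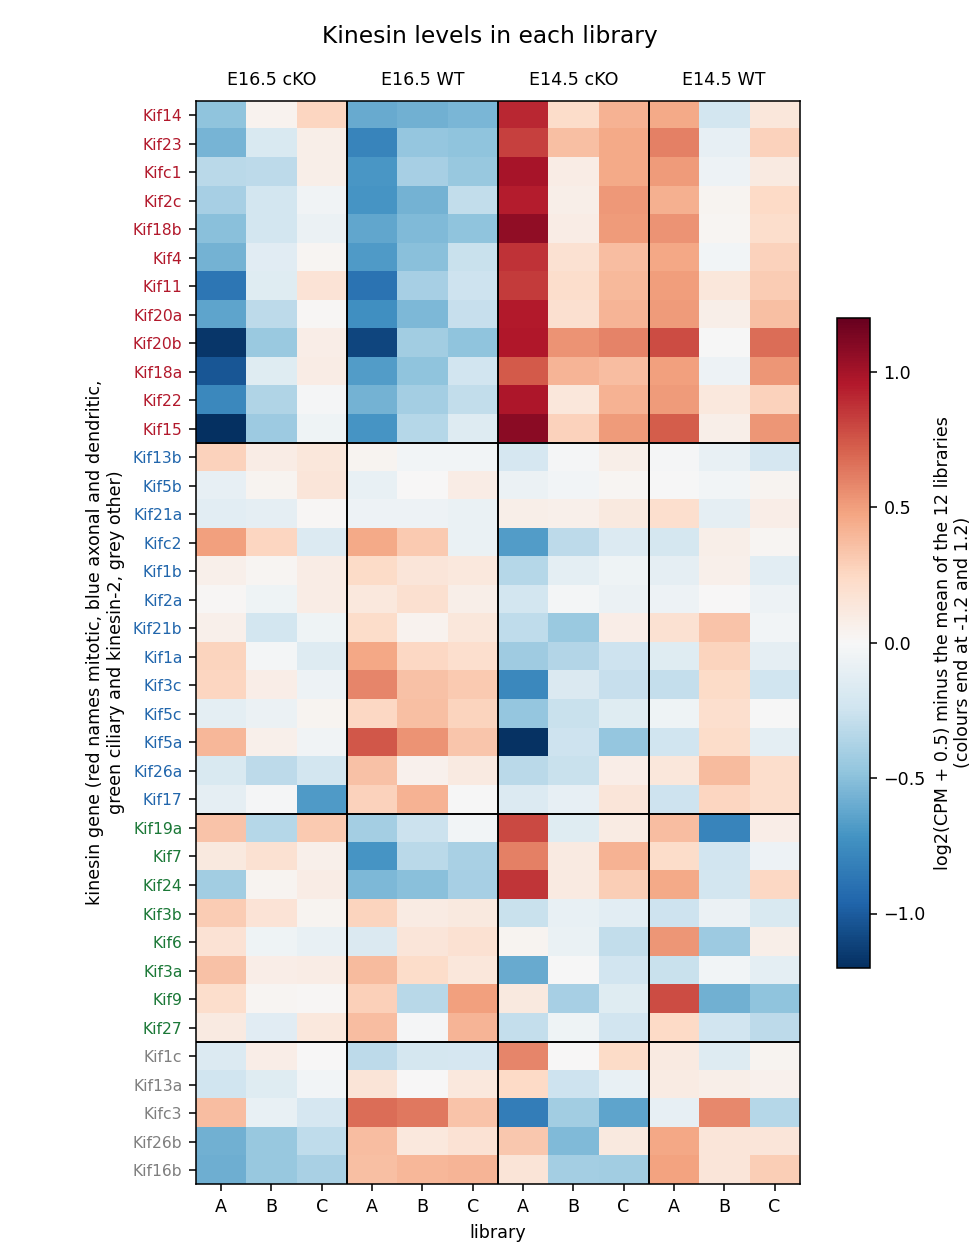
Level of each kinesin tested (rows, grouped by role) in each library (columns), as log2(CPM + 0.5) minus the gene's mean over the 12 libraries; red is above and blue below that mean. All 12 mitotic rows are above their mean in every E14.5 library other than WT B, where 6 are, and all 12 are below it in E16.5 cKO A and the 3 E16.5 WT libraries; in E16.5 cKO B 1 is above and in E16.5 cKO C 8 are.

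The 3 largest called changes at E16.5, those of Kif16b, Kif26b and Kif7, lay outside both of these roles. Kif16b, which moves early endosomes (chr2:142618345-142901464, minus strand), was at 12.8, 13.96 and 14.7 CPM in cKO A, B and C against 24.99, 25.7 and 25.9 CPM in WT. The 2 groups are far apart relative to their spread, and the log2 fold change was -0.86 (SE 0.094, adjusted p = 0.00205). Kif26b, a relative of Kif26a known for adhesion of mesenchyme in the mouse kidney (chr1:178529125-178932857, plus strand), was at 46.9, 50.9 and 56.7 CPM in cKO against 90.5, 76.3 and 78.9 CPM in WT, without overlap, and fell with log2 fold change -0.64, SE 0.095, adjusted p = 0.00506. Both were still called whichever single E16.5 library was left out. Kif7, which regulates Hedgehog signalling at the tip of the primary cilium (chr7:79698098-79714186, minus strand), was at 24.3, 25.5 and 23.3 CPM in cKO against 13.5, 17.8 and 17.0 CPM in WT. It was higher in all cKO libraries, with log2 fold change 0.63, SE 0.12, adjusted p = 0.0145, and was not called without cKO B.

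Among the other ciliary motors, Kif24, which trims centriolar microtubules, was at 23.3, 31.9 and 33.2 CPM in cKO against 21.3, 21.9 and 23.6 CPM in WT, log2 fold change 0.43, SE 0.14, adjusted p = 0.0729. Only cKO A overlapped WT, and with the block it rose (adjusted p = 0.00925). Kif3a and Kif3b, the motor pair of intraflagellar transport, had log2 fold changes of -0.038 (SE 0.10, adjusted p = 0.827) and 0.04 (SE 0.091, adjusted p = 0.802). Kif6, Kif9, Kif19a and Kif27 stayed below 9 CPM in every library and passed neither fit. The 10 motile cilia markers, 8 of them tested, summed to 80.0 to 124 CPM in E16.5 cKO against 60.1 to 80.6 CPM in WT. Of those tested 2 were called higher, where 5.98% of all genes were. Kifc3, a minus-end motor at cell junctions, was at 12.1, 8.61 and 7.97 CPM in cKO against 15.0, 14.6 and 11.8 CPM in WT, log2 fold change -0.50, SE 0.19, adjusted p = 0.11, and an adjusted p of 0.013 with the block. Kif1c rose with the block (log2 fold change 0.25, SE 0.069, adjusted p = 0.0205), and Kif13a, which carries endosomes, had -0.21 and passed neither fit.

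**Figure D4:**
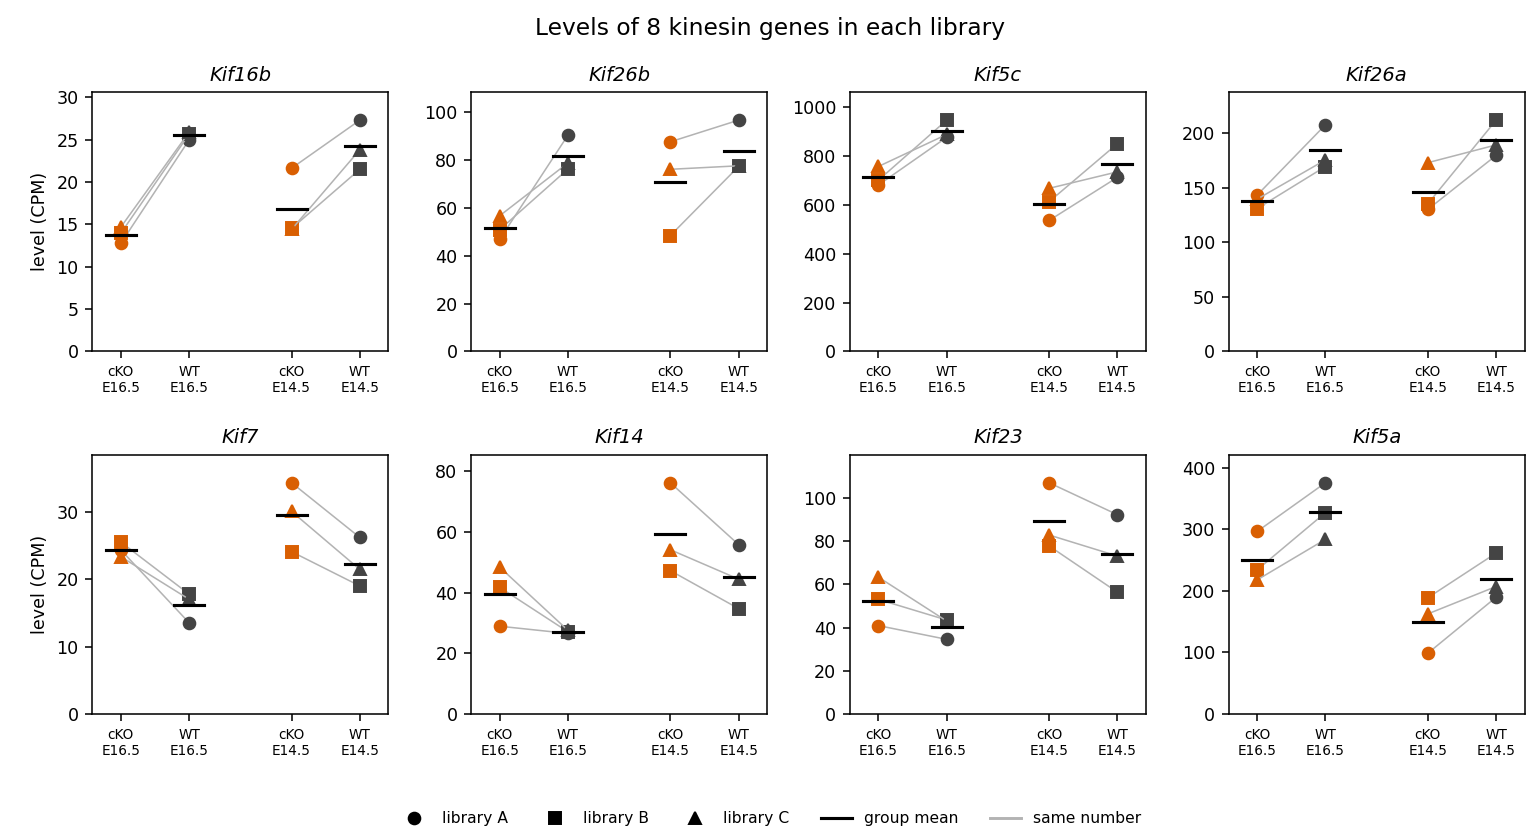
Level in CPM (y axes start at 0) of 8 kinesins in each library, with cKO to the left of WT at each age; symbols mark libraries A, B and C, grey lines join libraries with the same number and bars are group means. The E16.5 cKO points lie below all WT points for Kif16b, Kif26b, Kif5c and Kif26a and above them for Kif7 and Kif14, and overlap them for Kif23 and Kif5a.

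At E16.5, 5 kinesins had every cKO library above every WT library (Kif14, Kifc1, Kif13b, Kif7 and Kif1c), where 15.8% of all genes did. Another 8 had every cKO library below WT (Kif17, Kif1b, Kif26a, Kif3c, Kif5c, Kif13a, Kif16b and Kif26b), where 21.1% of all genes did. With 38 kinesins tested, both shares are close to those of all genes. The authors' deposited table for E16.5 holds 4 kinesins lower in cKO at an adjusted p under 0.05, Kif16b, Kif26b, Kif26a and Kif5c, and 2 higher, Kif7 and Kif14. For E14.5 the authors' deposited table holds none.

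At E14.5, 0 of the 38 kinesins passed edgeR's test with genotype as the only term, where 2.01% of all 14788 genes did. Of the 38, 7 had an unadjusted p under 0.05. DESeq2 called 0 kinesins as well, where it called 1187 of 14991 genes. With the number as a block edgeR called 3 kinesins, where it called 1279 of 14788 genes. Kif7 was higher (adjusted p = 0.0461) and Kif16b and Kif5a were lower. Pair C did not deviate together at this age (correlation -0.00285). With genotype as the only term the mitotic kinesins were all above 0, with a median log2 fold change of 0.25. Of 13 axonal and dendritic kinesins 11 were below 0, with a median of -0.30, and over all genes it was 0.03. At this age 0 kinesins had all cKO libraries above WT, where 12.6% of all genes did, and 5 had all cKO libraries below WT, where 14.6% did: Kif1a, Kif5a, Kif5c, Kif26a and Kifc3. The mitotic median depended on the libraries in the fit. It was 0.04 without cKO A, 0.13 without WT B and -0.097 without both. It was 0.36 without WT A, the library with choroid plexus RNA, 0.37 without cKO B, 0.31 without cKO C and 0.27 without WT C.

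Kif11 was at 305, 198 and 224 CPM in E14.5 cKO A, B and C against 241, 188 and 210.5 CPM in WT, log2 fold change 0.19, SE 0.17, adjusted p = 0.591. Kif23 was at 107, 77.8 and 82.8 CPM in cKO against 92.2, 56.4 and 73.1 CPM in WT, log2 fold change 0.27, SE 0.20, adjusted p = 0.485. Kif20a was at 129, 76.3 and 88.4 CPM in cKO against 95.2, 69.8 and 85.6 CPM in WT, log2 fold change 0.23, SE 0.21, adjusted p = 0.573. In all 3 genes cKO A was the highest of the 6 libraries and WT B the lowest, and cKO B and C lay among the WT libraries. As given above, cKO A stood apart in meningeal markers and WT B in ventral and GABAergic ones, whose part here was not tested. Without both of those libraries the 3 log2 fold changes were -0.10, -0.043 and -0.13. Leaving out the highest cKO and the lowest WT library lowers such values in any case. Kif4, at 129, 80.4 and 91.4 CPM in cKO against 97.8, 69.1 and 85.5 CPM in WT, is X-linked. For Kif4, as for every other gene at E14.5, genotype and sex differences cannot be told apart.

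Kif5a was at 98.7, 189 and 163 CPM in E14.5 cKO against 189.7, 261 and 207 CPM in WT, log2 fold change -0.55, SE 0.24, adjusted p = 0.259. Every cKO library was below every WT library, B only just, and with the block the adjusted p was 0.037. Kif1a was at 523, 551 and 591 CPM in cKO against 633, 845 and 653 CPM in WT, log2 fold change -0.36, SE 0.13, adjusted p = 0.198. Kif5c was at 536, 613 and 667 CPM in cKO against 712, 850.0 and 735 CPM in WT, log2 fold change -0.34, SE 0.12, adjusted p = 0.179. In both the groups did not overlap and WT B was the highest library. The remaining large differences were those of Kifc3, at 4.97, 6.78 and 5.77 CPM in cKO against 8.59, 14.03 and 7.16 CPM in WT with log2 fold change -0.76, SE 0.28, adjusted p = 0.19, and of Kif16b, at 21.6, 14.52 and 14.4 CPM in cKO against 27.3, 21.5 and 23.8 CPM in WT with log2 fold change -0.52, SE 0.19, adjusted p = 0.18. Kif16b was called lower with the block (adjusted p = 0.035), without cKO A, and also without cKO A and WT B. The pan-neuronal markers summed to 3104 to 5132 CPM in E14.5 cKO against 5135 to 7474 CPM in WT and the apical progenitor markers to 2345 to 2733 CPM in cKO against 2151 to 2363 CPM in WT; their part in the kinesin values was not tested.

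Whether the cKO effect differed between E16.5 and E14.5 was tested as the difference of the 2 effects in 1 fit of 12 libraries. In this difference the E14.5 effect is one of genotype and sex together. The difference was called for 0 of 38 kinesins and for 0 of 15338 genes (0%), with 0 kinesins at an unadjusted p under 0.05 and 0 called by DESeq2. The differences of log2 fold changes, E16.5 minus E14.5, were 0.13 (SE 0.34) for Kif11, 0.038 (SE 0.29) for Kif20a and 0.15 (SE 0.27) for Kif23. For the axonal members they were 0.13 (SE 0.20) for Kif1a, 0.19 (SE 0.31) for Kif5a and 0.042 (SE 0.14) for Kif5c. Among members above 5 CPM the largest were those of Kif26b at -0.38 (SE 0.24), Kifc2 at 0.36 (SE 0.28) and Kif16b at -0.31 (SE 0.21). A call at E16.5 and none at E14.5 is therefore not shown to be a difference between the ages.

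In WT cortex all 12 mitotic kinesins tested had lower levels at E16.5 than at E14.5. Their log2 fold changes of E16.5 over E14.5 ran from -1.18 to -0.73, with a median of -0.81 against -0.01 over all genes. All 12 had every E16.5 library below every E14.5 library, where 17.9% of all genes did. In the fit of all 12 libraries 1 of them, Kif23, passed the threshold, where 1.39% of all 15338 genes were called lower and 0.763% higher, and all 12 had an unadjusted p under 0.05. Fitted on the 6 WT libraries alone, 16 kinesins passed: all 12 mitotic members and Kif24 lower, and Kif5a, Kif3a and Kif3b higher, where 5.63% of genes were called lower and 5.04% higher. The 2 ages were counted in separate tables with the same settings, and age and any difference in handling between them cannot be told apart.

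Kif23 was at 34.5, 43.5 and 43.0 CPM in E16.5 WT A, B and C against 92.2, 56.4 and 73.1 CPM in E14.5 WT, and fell with log2 fold change -0.88, SE 0.19, adjusted p = 0.0449. Kif20b, a midbody kinesin, had the lowest value, at 24.0, 39.0 and 37.1 CPM in E16.5 WT against 90.2, 52.1 and 83.1 CPM in E14.5 WT, log2 fold change -1.18, SE 0.29, adjusted p = 0.0536. Kif11 was at 91.9, 129 and 143 CPM in E16.5 WT against 241, 188 and 210.5 CPM in E14.5 WT, log2 fold change -0.82, SE 0.24, adjusted p = 0.0729, and Kif20a had log2 fold change -0.84, SE 0.21, adjusted p = 0.0528. In these genes no library of one age reached those of the other. The next values were those of Kif15 and Kif18b, with log2 fold changes of -0.87 and -0.84 (adjusted p = 0.113 and 0.0536). Which libraries are in the fit decides the call, here and over all genes. Without E14.5 WT B 16 kinesins passed, 12 lower (10 of them mitotic) and 4 higher, where 7.06% of all genes were called lower and 7.13% higher. Without any other single WT library 0 kinesins passed, where 1 to 60 of all genes did. In those fits the mitotic median ran from -0.91 to -0.69. With embryo sex as a term 0 kinesins passed, where 10 of 15338 genes did, and the mitotic median was -0.85. E16.5 WT A is the only female among the WT libraries.

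**Figure D5:**
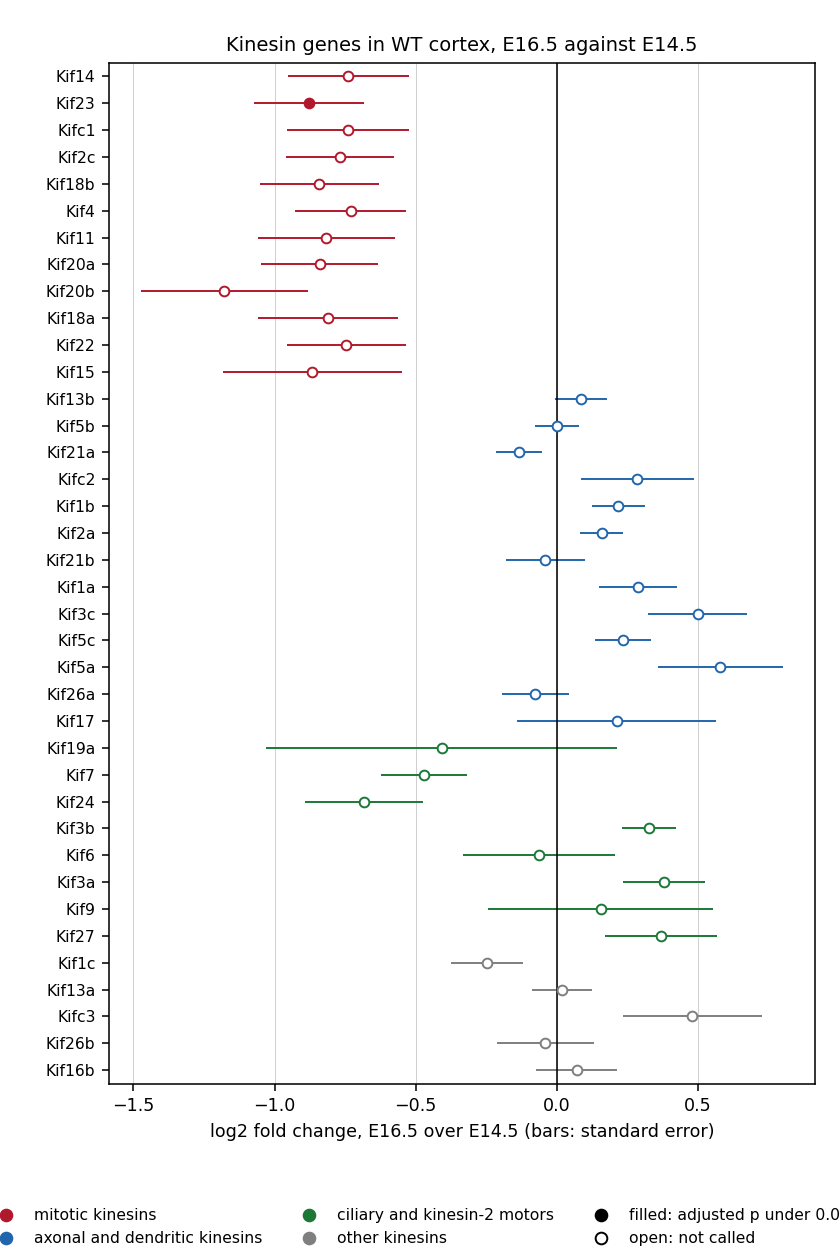
Log2 fold change of E16.5 over E14.5 in WT cortex (x axis) with its standard error for the 38 kinesins tested, ordered as in the plot of the cKO effect; the filled point has an adjusted p under 0.05. The 12 mitotic members all lie at or below -0.73, and the axonal and dendritic members between -0.13 and 0.58.

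The axonal and dendritic kinesins had a median log2 fold change of 0.21 with age, and 9 of 13 were above 0. Kif5a was at 375.7, 327 and 284 CPM in E16.5 WT against 189.7, 261 and 207 CPM in E14.5 WT, log2 fold change 0.58, SE 0.22, adjusted p = 0.123. All E16.5 libraries were above all E14.5 libraries. Kif5c was at 876, 947 and 888 CPM in E16.5 WT against 712, 850.0 and 735 CPM in E14.5 WT, log2 fold change 0.23, SE 0.10, adjusted p = 0.158, and Kif1a had log2 fold change 0.29, SE 0.14, adjusted p = 0.195. In 5 of the 13 every E16.5 library was above every E14.5 library, where 17.4% of all genes were. Kif5b had a log2 fold change of 0 within 2 decimals (SE 0.077). The E16.5 WT libraries serve in this comparison and in the cKO comparison at E16.5, so the values of the 2 are not independent of each other.

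Proteins that work with kinesins were read from lists. Of 25 mitotic partners, Cdca8, a subunit of the chromosomal passenger complex, rose in E16.5 cKO (log2 fold change 0.44, SE 0.11, adjusted p = 0.0371) and Plk1, the mitotic kinase polo, fell (log2 fold change -0.77, SE 0.20, adjusted p = 0.0397). The rest did not pass, 22 of 25 were above 0 and the median was 0.24; with the block 11 were higher and 2 lower. Plk1 was at 10.96, 15.1 and 21.2 CPM in cKO against 26.8, 27.0 and 28.2 CPM in WT, below WT in every library. Of 23 cargo adaptors and light chains 5 fell and 0 rose at E16.5, with a median of -0.10, and with the block 11 fell and 1 rose. Over all genes 9.88% fell and 5.98% rose, and with the block 17.9% fell and 14.3% rose. Those that fell most clearly were Trak1, which links kinesin-1 to mitochondria (log2 fold change -0.37, SE 0.064, adjusted p = 0.00892), Kidins220, a neurotrophin receptor scaffold that binds kinesin-1 (log2 fold change -0.53, SE 0.10, adjusted p = 0.011), Mapk8ip1, a kinesin-1 cargo scaffold (log2 fold change -0.41, SE 0.081, adjusted p = 0.0135), and Fez2, a kinesin-1 adaptor (log2 fold change -0.49, SE 0.10, adjusted p = 0.0169). Of 25 subunits and regulators of dynein and dynactin, the motor that runs the other way along axons, 2 fell, the cargo adaptor Hook1 (log2 fold change -0.42, SE 0.075, adjusted p = 0.00961) and the light chain Dynlt3 (log2 fold change -0.47, SE 0.13, adjusted p = 0.0468), with a median of 0.037. With the block 5 of the 25 fell and 1 rose. In both fits the share of dynein genes that fell is close to that of all genes.

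With the block 1 cargo adaptor and 1 dynein gene fell at E14.5, where 1053 of 14788 genes did. With genotype as the only term no gene of these 3 lists passed at this age. The values with the lowest p were those of Bub1 at log2 fold change 0.34, SE 0.21, adjusted p = 0.403 and Cdk1 at log2 fold change 0.28, SE 0.17, adjusted p = 0.411 among mitotic partners, Trak1 at log2 fold change -0.44, SE 0.11, adjusted p = 0.0872 and Mapk8ip2 at log2 fold change -0.44, SE 0.13, adjusted p = 0.122 among adaptors, and Hook1 at log2 fold change -0.48, SE 0.11, adjusted p = 0.0662 and Dync1li1 at log2 fold change -0.21, SE 0.14, adjusted p = 0.46 among dynein genes. With age in WT, 6 of 25 mitotic partners fell at E16.5 and 0 rose, where 1.39% of all genes fell, all 25 were below 0 and the median was -0.79, beside -0.81 for the mitotic kinesins. The 4 with the lowest p were Birc5, a passenger complex subunit (log2 fold change -1.03, SE 0.18, adjusted p = 0.0295), the spindle kinase Aurka (log2 fold change -0.93, SE 0.20, adjusted p = 0.0437), the cytokinesis regulator Ect2 (log2 fold change -0.97, SE 0.22, adjusted p = 0.045) and Cenpe (log2 fold change -0.95, SE 0.21, adjusted p = 0.0459). Cenpe is itself a kinesin, the motor that moves chromosomes to the spindle equator, and its symbol falls outside the naming rule. No cargo adaptor and no dynein gene passed with age; Fez2 had log2 fold change 0.40, SE 0.094, adjusted p = 0.0512, Kifap3, which ties the Kif3 motors to their cargo, log2 fold change 0.62, SE 0.17, adjusted p = 0.0646, Dync1i1 log2 fold change 1.82, SE 0.50, adjusted p = 0.0651 and Nde1 log2 fold change -0.72, SE 0.21, adjusted p = 0.0684.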

How the data were processed

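RNA of dorsal cortex was extracted with TRIzol, per the labels. Per the submitters' processing notes, the genome was mm10 and the aligner used by the authors STAR 2.5.2b. The deposited counts are fragments per gene from featureCounts 1.5.2 over RefSeq exons, reverse-stranded (setting 2), each overlapping an exon by 25 bases or more; all this is per the file headers. The authors' deposited tables give log2 fold changes (WT over KO) with p-values and their adjusted form. The processing notes of the submitters name DESeq2 1.14.1 for these, and the 12 per-sample columns beside them were not used.

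Counts of each age were fitted alone with edgeR 4.0.16 in R 4.3.3 (TMM scaling, filterByExpr, robust quasi-likelihood fit, limma 3.58.1), and both contrasts with age in 1 fit of 12 libraries. P-values were adjusted by Benjamini-Hochberg over all genes, and the code was tested on simulated data. DESeq2 1.42.0, other scalings, no filter, embryo sex, the replicate block and left-out libraries were alternatives. At E16.5 same-number libraries deviated together (r = 0.279, 0.209 and 0.111), which is the ground for the block. The highest r between different numbers at that age was 0.107, for cKO B and WT C, close to that of pair C. No 2 libraries were copies (lowest chi-square per degree of freedom 9.06). Promoter windows came from RefSeq tables of GRCm38.p6, which is mm10.

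Members, roles and lists were chosen with earlier results of these data known. Named with values were Ash2l, 6 anchors (Kif11, Kif20a, Kif23, Kif1a, Kif5a and Kif5c), called kinesins of at least 1 CPM (no more than 8 per direction) and the 3 largest uncalled ones from 5 CPM up, and from each partner list up to 4 called or 2 uncalled genes; other members were named after their values were seen.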

Additional observations from a re-analysis of the deposited data

How the results depend on the processing

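At E14.5 the count of kinesins called was 0 under RLE scaling, library totals, no filter on low counts, DESeq2 and embryo sex as a term (fitted over 12 libraries, since sex and genotype coincide at this age). Of all genes these fits called 295, 295, 356, 1187 and 128. It was 1 (Kif16b) with all 12 libraries in 1 fit and 1 without WT B and cKO A, and 0 to 1 when single libraries were left out. With the replicate block the count of kinesins was 3 (Kif7 higher, Kif16b and Kif5a lower), where 1279 of 14788 genes were called. The same-number correlations at E14.5 were 0.272 and 0.304 for pairs A and B, about as large as the largest at E16.5. For pair C the correlation was -0.00285. What the number marks is not stated at either age. At E16.5 the count of 5 was 5 under RLE scaling, no filter and embryo sex, where 2329, 2287 and 1618 of all genes were called. It was 6 under library totals and DESeq2 (Kif14 added), where 2491 and 2770 were. With all 12 libraries in 1 fit it was 3, where 1882 were. With the replicate block it was 21, the 5 among them, where 4790 were. Without both libraries C the block gave 17, where 4273 genes were called. When single libraries were left out it was 2 to 15, where 987 to 2855 were. The age difference of the cKO effect was called for 0 kinesins under every alternative run, the replicate block included. With age in WT, the count of 1 was 0 under RLE scaling, library totals, no filter and embryo sex as a term, where 263, 251, 230 and 10 of all genes were called. It was 14 under DESeq2 and 16 with WT libraries alone, where 1967 and 1586 were. When single libraries were left out it was 0 to 16, where 1 to 2216 were. No replicate block was run for that contrast, whose groups share no number. The causes were not tested.

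Among single genes, without E14.5 WT B and cKO A the E14.5 log2 fold changes were -0.10 for Kif11, -0.13 for Kif20a and -0.043 for Kif23, and the age differences -0.079 for Kif1a, -0.20 for Kif5a and -0.15 for Kif5c. With no filter the age differences were -0.0103 for Kif20a and -0.00298 for Kif5c. With single libraries left out, the E14.5 value ran from -0.018 to 0.30 for Kif11 and from -0.023 to 0.37 for Kif20a. The age difference ran from -0.11 to 0.34 for Kif11, -0.14 to 0.26 for Kif20a, -0.038 to 0.29 for Kif23, -0.038 to 0.22 for Kif1a, -0.058 to 0.37 for Kif5a and -0.065 to 0.091 for Kif5c, all within 1 SE of 0 in the fit of all libraries. The fits without both E14.5 libraries, and without both E16.5 libraries C, were chosen after seeing the data. Leaving out a library leaves its group with 2.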
